A study of Mus musculus with 6 samples.

Results

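Messenger RNA of 10 regulators of epithelial splicing and transcription was examined in cells sorted from bone cultures and labelled MSC, with and without a functional Zeb1 gene. The genes were taken by name from the deposited table of 54532 genes. They are the splicing factors Esrp1 and Esrp2, the transcription factors Grhl1, Grhl2, Grhl3, Elf3, Ovol1 and Ovol2, and the splicing factors Rbfox2 and Qk, which are widely expressed in mesenchyme. All 10 were in the table, once each. Zeb1Prx1 libraries came from mice of the genotype Prx1-Cre+; ROSA-YFP; Zeb1fl/fl, and WT libraries from mice that were Prx1-Cre+; ROSA-YFP; Zeb1wt/wt. Both groups therefore carried the Cre driver, which is active in limb mesenchyme, and the fluorescent reporter, and both were untreated. Femurs and tibias were digested with collagenase, the bone chips were cultured, and fluorescent cells were sorted. Each group had 3 libraries. The sources used here give neither the age of the mice nor whether replicates were separate mice or cultures, so p-values reflect only the spread between these libraries, which could be technical.

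Epithelial and mesenchymal cells splice many of the same transcripts differently. Esrp1 and Esrp2 are RNA-binding proteins that include epithelial exons, among them the epithelial form of the FGF receptor gene Fgfr2, while Rbfox2 and Qk bind other RNA words and favour the mesenchymal exon pattern at many sites. On the transcriptional side, Grhl2 and Ovol2 activate or protect the epithelial programme, in part by repressing Zeb1, and Elf3 is an Ets factor of simple epithelia. Zeb1 in turn represses many epithelial genes, Esrp1 among them in human carcinoma cells, through sites containing the words CAGGTG or CAGGTA.

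Expression is given as FPKM, fragments assigned to a gene, normalised to its length and to the library total, which allows levels to be compared between genes. Fragment numbers could be recovered, because the product of FPKM and gene length came in whole steps within each library (all 127408 non-zero values, relative tolerance 1e-06). They summed to 14724357 to 18354894 per library, and 3 fragments, the upper limit that a count of 0 allows, equal 0.163 to 0.204 CPM. Intervals (95%) and limits based on fragments describe counting error alone. Zeb1 had 1.92, 1.59 and 2.84 FPKM in Zeb1Prx1 libraries, against 6.61, 10.3 and 7.12 FPKM in WT libraries. The stromal marker Prrx1 was present in each of the 6 libraries, at 22.6, 18.9 and 22.0 FPKM in Zeb1Prx1, against 18.1, 30.5 and 20.9 FPKM in WT. The 12 macrophage markers were all present as well, with a summed level of 9896 to 20494 FPKM in Zeb1Prx1 and 11897 to 14655 FPKM in WT. By mean FPKM among all genes in the table, they ranked from 2 (Lyz2) to 3138 (Ptprc). The stromal markers ranked from 9 (Col1a1) to 14284 (Lepr), with Prrx1 at 2337. The libraries therefore held abundant macrophage as well as stromal transcripts, and bulk levels do not show which cells carried a transcript. Zeb1Prx1 replicate 2 stood apart by its FPKM sum of 372566, against 282995 to 312038 in the other Zeb1Prx1 libraries and 278987 to 289879 in WT. The X-inactivation transcript Xist had 1.47, 0.0031 and 12.6 FPKM in Zeb1Prx1, against 26.8, 40.4 and 32.9 FPKM in WT, so the sex makeup of the groups cannot be told apart from the genotype.

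The members fell into 2 sets by level. Rbfox2 and Qk ranked 2658 and 2937 by mean FPKM among all genes in the table. Esrp1 ranked 12811, and the other 7 ranked lower still. Only Rbfox2 and Qk reached the filter of at least 1 FPKM in at least 3 libraries, which left 12534 genes for limma on log2(FPKM + 1). Of the 8 under the filter, 5 had at least 10 fragments over the 6 libraries, Grhl2 and Grhl3 had 6 and 7, and Ovol2 had none. Across the 10 members, 2 were higher in every Zeb1Prx1 library than in every WT library (Esrp1 and Elf3), 1 was lower (Qk) and 7 overlapped. Among all 19615 genes with at least 10 fragments, 10.7% were higher and 10.6% lower in this sense. Esrp1, Elf3 and Qk were among the 7 members at that depth. In these bulk libraries, fewer cells of a type and less RNA per cell cannot be told apart.

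Esrp1 (ENSMUSG00000040728, mm10 chromosome 4, 11331933 to 11386783, minus strand), the main epithelial splicing factor, was found in each Zeb1Prx1 library and in no WT library. It had 1.89, 0.123 and 3.28 FPKM in Zeb1Prx1 replicates 1, 2 and 3, against 0, 0 and 0 FPKM in WT, from 191, 14 and 316 fragments against none. The groups did not overlap, and the Zeb1Prx1 libraries differed widely among themselves, with replicate 3 highest and replicate 2 lowest. Scaled by assigned fragments, Esrp1 was at least 166-fold higher in Zeb1Prx1, with 3 fragments taken as the ceiling for the whole WT group. The bound was 94.9-fold without Zeb1Prx1 replicate 3, 254-fold without Zeb1Prx1 replicate 2 and 105-fold without WT replicate 1. Of the 19615 genes with at least 10 fragments, 56 (0.285%) were, like Esrp1, under the filter on level with no fragment in WT and some in each Zeb1Prx1 library. Genes that reached the filter were left out of that count. By limma on these 19615 genes Esrp1 did not pass (adjusted p = 0.357, unadjusted p = 0.0268), nor by limma voom on the recovered fragments (adjusted p = 0.367). Unadjusted p-values under 0.05 on the higher side were found for 6.74% of the genes in that limma fit, and both fits called 0 genes (0%) at an adjusted p under 0.05, with 2532 genes by limma and 2614 by voom at an unadjusted p under 0.05. The exact permutation test on FPKM gave p = 0.1, the smallest that 3 against 3 libraries allow.

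Esrp2 (ENSMUSG00000084128, chromosome 8, 106130319 to 106136974, minus strand), the paralogue with overlapping targets, was low in both groups. It had 0.258, 0.205 and 0.588 FPKM in Zeb1Prx1, against 0.352, 0.135 and 0.120 FPKM in WT. WT replicate 1 lay above Zeb1Prx1 replicates 1 and 2, and the groups overlapped. The 73 fragments in Zeb1Prx1 and 45 in WT gave a scaled ratio of 1.55 (95% counting interval 1.05 to 2.30), or 2.59 without WT replicate 1. Esrp2 did not pass by limma (adjusted p = 0.600; exact permutation p = 0.5). Its span overlaps 2 genes of the opposite strand, Nfatc3 and 1810019D21Rik, whose fragments cannot be told apart where the genes coincide, since the sources used here do not give whether counting used strand. In WT, Esrp2 thus held all detected Esrp fragments, while in Zeb1Prx1 replicates 1 and 3 Esrp1 was the more abundant paralogue per length and in replicate 2 it was Esrp2.

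Elf3 (ENSMUSG00000003051, chromosome 1, 135253575 to 135258568, minus strand), the epithelial Ets factor, showed the same order of libraries as Esrp1 at a lower level. It had 0.281, 0.0751 and 0.738 FPKM in Zeb1Prx1, against 0, 0 and 0.0294 FPKM in WT. These values rest on 10, 3 and 25 fragments in Zeb1Prx1, against 0, 0 and 1 fragments in WT. The groups did not overlap. The scaled ratio was 36.2 with a counting interval of 6.12 to 1469. It was 18.1 without Zeb1Prx1 replicate 3 and 22.9 without WT replicate 1, and without WT replicate 3, which held the 1 WT fragment, Elf3 was at least 8.36-fold higher. Elf3 did not pass by limma on genes with at least 10 fragments (adjusted p = 0.381, unadjusted p = 0.0450) or by voom (adjusted p = 0.344). Under the filter on level there were 7100 genes with at least 10 fragments, of which 7.27% were, like Esrp1 and Elf3, higher in every Zeb1Prx1 library. The antisense gene Gm26642 overlaps the span of Elf3 and had 31, 35 and 28 fragments in Zeb1Prx1, against 38, 38 and 52 in WT, a different order of libraries.

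The Grainyhead-like factors, which open and activate epithelial genes, were near the limit of detection in both groups. Grhl1 (ENSMUSG00000020656, chromosome 12, 24572283 to 24617391, plus strand) had 0.191, 0.0901 and 0.0473 FPKM in Zeb1Prx1, against 0.138, 0.0587 and 0.0353 FPKM in WT. The groups overlapped, and the scaled ratio of 30 to 22 fragments was 1.30 (counting interval 0.725 to 2.37), with 2.26 without WT replicate 1 and 0.829 without Zeb1Prx1 replicate 1. Grhl2 (ENSMUSG00000022286, chromosome 15, 37233036 to 37363569, plus strand), the family member most tied to epithelial identity, had 6 fragments, all in Zeb1Prx1 replicate 1. Its levels were 0.0433, 0 and 0 FPKM in Zeb1Prx1, against 0, 0 and 0 FPKM in WT. Grhl3 (ENSMUSG00000037188, chromosome 4, 135541888 to 135573630, minus strand), which acts in epidermal barrier formation, had 0, 0.0199 and 0 FPKM in Zeb1Prx1, against 0.0196, 0.0233 and 0.0934 FPKM in WT. That is 1 fragment in Zeb1Prx1 and 6 in WT, a scaled ratio of 0.159 whose counting interval of 0.00346 to 1.31 includes 1. It was 0.330 without WT replicate 3 and at most 0.753 without Zeb1Prx1 replicate 2. No difference was detectable for the 3 Grhl genes at this depth.

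The Ovo-like zinc-finger repressors were likewise at the limit. Ovol1 (ENSMUSG00000024922, chromosome 19, 5549137 to 5560575, minus strand) had 0.236, 0 and 0.135 FPKM in Zeb1Prx1, against 0.0754, 0.0673 and 0.0898 FPKM in WT. Zeb1Prx1 replicate 2 lay below and replicates 1 and 3 above all WT libraries. The 17 fragments in Zeb1Prx1 and 11 in WT gave a scaled ratio of 1.47 (counting interval 0.651 to 3.48), with 0.765 without Zeb1Prx1 replicate 1 and 2.33 without replicate 2. Ovol2 (ENSMUSG00000037279, chromosome 2, 144305175 to 144332146, minus strand), which represses Zeb1 in epithelia, had 0 fragments in each of the 6 libraries, so it was not detectable below the limit of 3 fragments per library. The fits on genes with at least 10 fragments did not call Grhl1 (adjusted p = 0.818 by limma and 0.843 by limma voom) or Ovol1 (0.788 and 0.881). The sign for Ovol1 differed between them, with a log2 change of 0.055 by limma and -0.46 by limma voom.

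**Figure D1:**
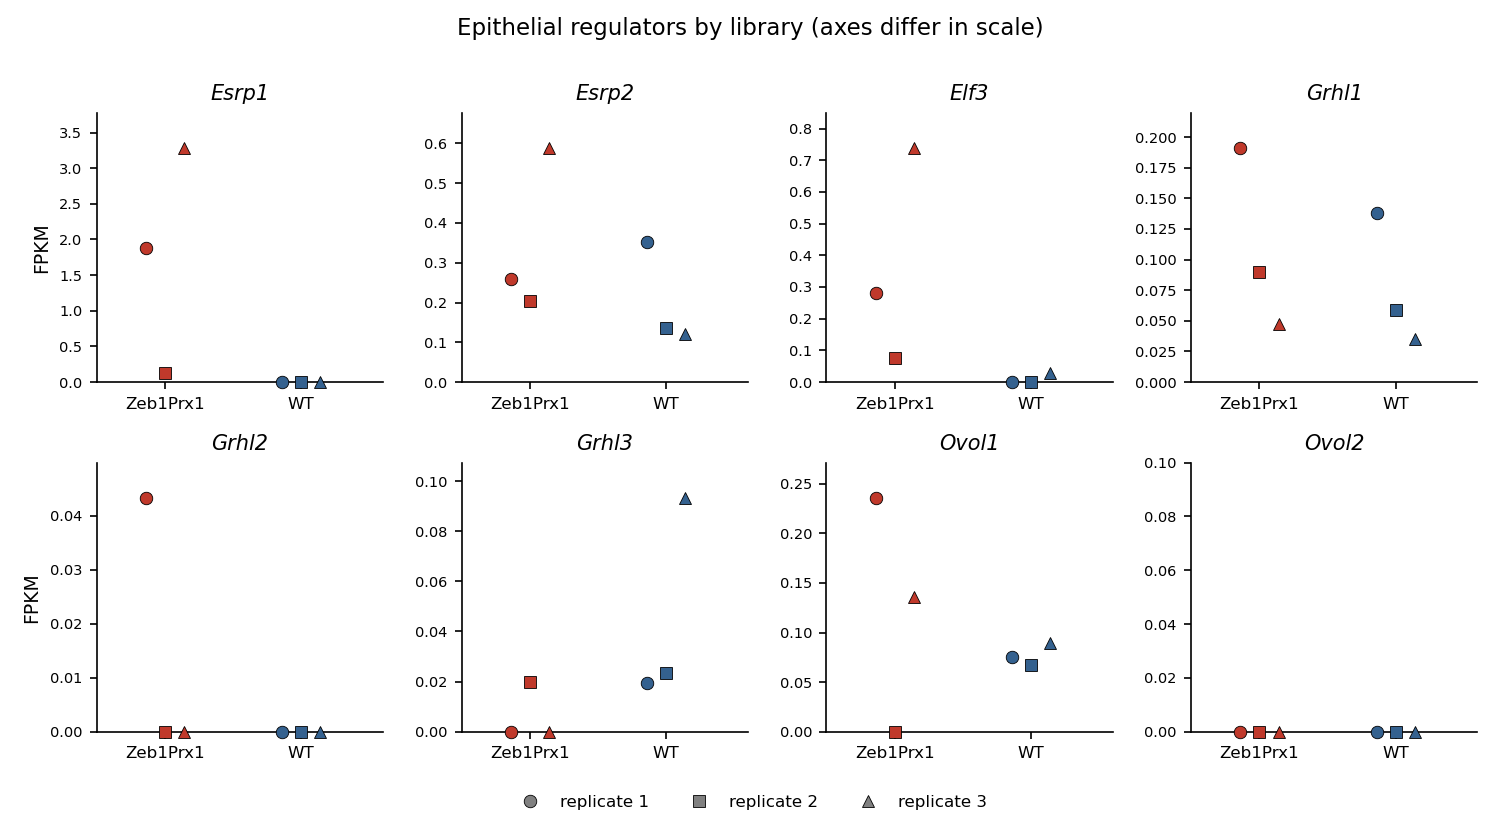
FPKM of the 8 epithelial regulators in each library, with Zeb1Prx1 in red left of WT in blue and 1 marker shape per replicate number; each vertical axis has its own scale and starts at 0. Esrp1 and Elf3 lie above all WT libraries in each Zeb1Prx1 library (Esrp1 at 0.123 to 3.28 FPKM against 0), Esrp2, Grhl1, Grhl2, Grhl3 and Ovol1 overlap, and Ovol2 is at 0 throughout.

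The promoters of Elf3 and Grhl3 are shown because both hold the words to which Zeb1 binds. The RefSeq promoter table of build GRCm38.p6, which shares its coordinates with mm10, gives 250 bases before to 50 after the gene start and held 5 of the 10 members: Elf3, Grhl1, Grhl3, Ovol2 and Qk. In the sequences below, read 5′ to 3′ on the gene's strand, capitals mark the words CAGGTG and CAGGTA on either strand. The first is chr1:135258423-135258722 and the second chr4:135573583-135573882, both on the minus strand.
Elf3: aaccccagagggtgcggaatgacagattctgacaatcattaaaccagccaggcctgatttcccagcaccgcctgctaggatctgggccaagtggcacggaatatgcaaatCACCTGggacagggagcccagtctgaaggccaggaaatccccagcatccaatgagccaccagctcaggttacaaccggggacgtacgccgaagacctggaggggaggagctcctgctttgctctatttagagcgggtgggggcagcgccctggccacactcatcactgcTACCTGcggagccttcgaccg
Grhl3: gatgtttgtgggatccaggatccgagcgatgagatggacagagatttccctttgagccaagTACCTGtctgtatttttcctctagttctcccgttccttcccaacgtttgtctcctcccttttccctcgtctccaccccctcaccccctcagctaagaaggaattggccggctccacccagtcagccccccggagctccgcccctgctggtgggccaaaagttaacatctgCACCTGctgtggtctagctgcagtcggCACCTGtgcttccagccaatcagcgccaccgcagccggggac
Elf3 held 1 match to CAGGTG, at base 111 of the 300, and 1 to CAGGTA, at base 280, both as the reverse complement. Grhl3 held 2 matches to CAGGTG, at bases 232 and 259, and 1 to CAGGTA, at base 62. Neither word occurred in the promoters of Qk, Ovol2 or Grhl1, for which 2 starts are listed. Of 32851 promoters in the table, 20.2% held CAGGTG, 12.0% held CAGGTA and 29.5% held at least 1 of them on either strand; the 2 words do not overlap each other in the sequences shown. Elf3, with 2 matches, had 38 fragments in Zeb1Prx1 and 1 in WT. Grhl3, with 3 matches, had 1 and 6, too few to show a difference. Whether Zeb1 acts at these words was not tested.

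Rbfox2 and Qk, the factors of the mesenchymal splicing pattern, were expressed at similar levels. The groups overlapped for Rbfox2 and not for Qk, and neither gene was called. Whether the changes of the 2 genes differ was not tested. Rbfox2 (ENSMUSG00000033565, chromosome 15, 77078990 to 77307004, minus strand), which binds the word UGCAUG beside regulated exons, had 24.6, 15.6 and 20.7 FPKM in Zeb1Prx1, against 18.2, 19.2 and 19.98 FPKM in WT. Zeb1Prx1 replicate 1 was the highest and replicate 2 the lowest of the 6, so the groups overlapped. The mean was 20.3 ± 4.50 FPKM in Zeb1Prx1 and 19.1 ± 0.906 FPKM in WT (SD, n = 3 each), and the log2 change was 0.060 (SE 0.19, 95% interval -0.38 to 0.50, limma adjusted p = 0.881). The sign was negative when each library was scaled to the same FPKM total (-0.10) and without Zeb1Prx1 replicate 1 (-0.083). That rescaling moved the median log2 change of all genes to -0.12, against 0.017 without it, and relative to that median Rbfox2 stood at 0.023.

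Qk (ENSMUSG00000062078, chromosome 17, 10202601 to 10319854, minus strand), which encodes the STAR-family protein quaking, was lower throughout Zeb1Prx1, without overlap. It had 17.3, 13.3 and 14.3 FPKM in Zeb1Prx1, against 20.9, 19.0 and 20.7 FPKM in WT. The mean was 15.0 ± 2.11 FPKM in Zeb1Prx1 and 20.2 ± 1.03 FPKM in WT (SD, n = 3 each), 0.741-fold. The log2 change was -0.42 (SE 0.15, 95% interval -0.77 to -0.064), with an unadjusted limma p of 0.0266 that did not pass over all genes (limma adjusted p = 0.298). The unadjusted limma p was over 0.05 in 5 of the 15 other fits, at 0.0588 with the replicate block, 0.0770 without Zeb1Prx1 replicate 3, and 0.0801, 0.0530 and 0.0817 without WT replicates 1, 2 and 3. In this fit 0 of 12534 genes (0%) were called, 6.98% had an unadjusted p under 0.05 on the lower side and 8.15% on the higher side. Of the same genes, 11.8% were lower and 12.6% higher without overlap, so Qk shared its position with many others. Its log2 change stayed between -0.58 and -0.34 in the 15 other fits, and its adjusted p lay between 0.0658 (library weights) and 0.570 (without WT replicate 3). In Zeb1Prx1 Rbfox2 was above Qk in each library, whereas in WT replicates 1 and 3 it was Qk that was higher. Deposited values are per gene, so isoforms of Qk and Rbfox2, and the exons they switch, were not measured.

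Macrophage markers were read beside Qk, and none of them was called (5 of 12 had an unadjusted limma p under 0.05). Of the 12 macrophage markers, none was at 0 and 5 were lower in Zeb1Prx1 without overlap (Adgre1, Cd68, Csf1r, Ptprc and Cybb), set against 11.8% of all genes at the filter. The other 7 overlapped, and the summed level of the list was 9896 to 20494 FPKM in Zeb1Prx1 and 11896 to 14655 FPKM in WT. Most of that sum was Lyz2. By limma, 10 of the 12 lay below 0 and 2 above 0, with a median log2 change of -0.44, against 0.017 for all 12534 genes tested. Means were higher in Zeb1Prx1 for Lyz2 (10853 FPKM, against 9542 FPKM in WT) and Tyrobp (345 FPKM, against 289 FPKM in WT). Adgre1, which encodes the surface protein F4/80, had 164, 119 and 117 FPKM in Zeb1Prx1, against 215, 230 and 250 FPKM in WT. Over the 10 stromal markers, 1 was higher (Col1a2) and 1 lower (Pdgfrb) without overlap, with a summed level of 2594 to 4620 FPKM in Zeb1Prx1 and 2111 to 2850 FPKM in WT. Their part in the level of Qk was not tested.

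**Figure D2:**
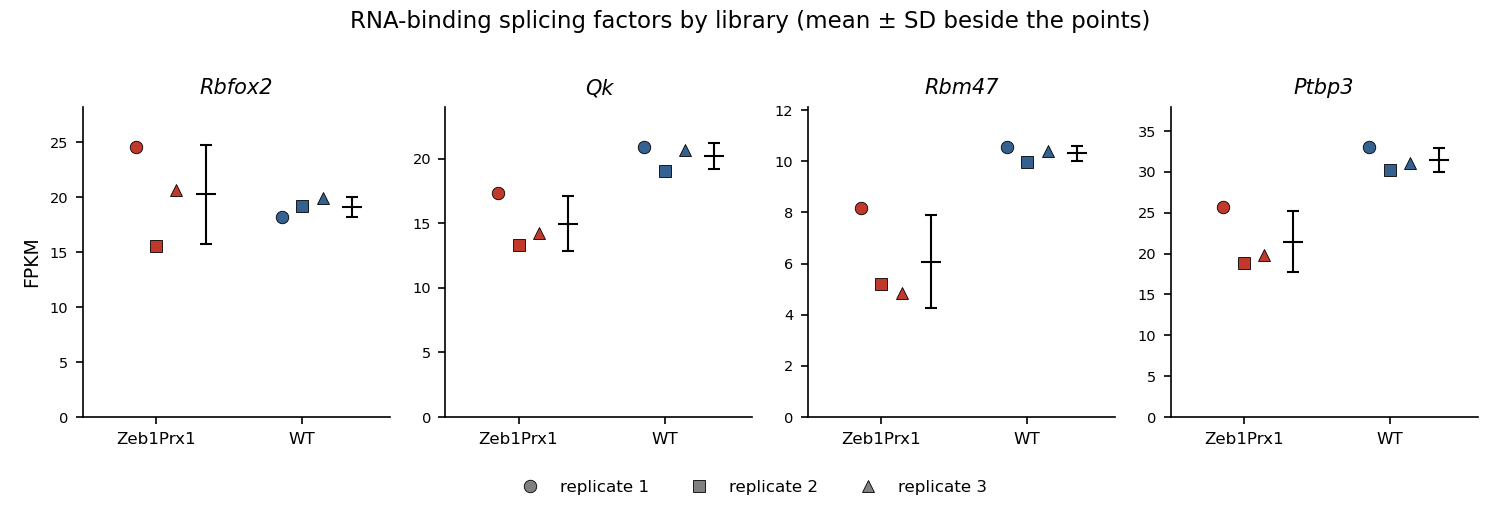
FPKM of Rbfox2, Qk, Rbm47 and Ptbp3 in each library, Zeb1Prx1 in red left of WT in blue, with the mean ± SD (n = 3) in black beside the points. Rbfox2 overlaps between the groups, while Qk (13.3 to 17.3 against 19.0 to 20.9 FPKM), Rbm47 and Ptbp3 are lower in each Zeb1Prx1 library without passing the test over all genes.

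Other splicing regulators lay more often below than above 0. Of 28 listed genes, 22 reached the filter, with 14 below 0 and 8 above 0 on the log2 scale and a median log2 change of -0.13, against 0.017 for all 12534 genes tested. None was called; 5 had an unadjusted p under 0.05, all on the lower side, and 6 of the 22 were lower without overlap, set against 11.8% of all genes, and 0 higher. Celf2, a regulator of splicing and RNA decay abundant in blood cells, had 3.57, 3.56 and 2.74 FPKM in Zeb1Prx1, against 5.89, 4.62 and 5.60 FPKM in WT (limma adjusted p = 0.273). Rbm47, an RNA-binding protein of epithelia and myeloid cells, had 8.18, 5.20 and 4.86 FPKM in Zeb1Prx1, against 10.5, 9.96 and 10.4 FPKM in WT (limma adjusted p = 0.273). Both therefore lay lower in each Zeb1Prx1 library. The polypyrimidine-tract binder Ptbp3 had 21.5 ± 3.69 FPKM in Zeb1Prx1 and 31.4 ± 1.42 FPKM in WT, and the muscleblind factor Mbnl1 had 24.0 ± 2.74 FPKM in Zeb1Prx1 and 32.7 ± 3.97 FPKM in WT (limma adjusted p = 0.275 and 0.302). Among the paralogues of Rbfox2, which act mainly in neurons and muscle, Rbfox1 had 20, 10 and 5 fragments in Zeb1Prx1, against 31, 20 and 30 in WT, and Rbfox3 had none in the 6 libraries.

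Transcription factors of epithelia outside the Grhl, Ovol and Elf3 set were mostly low, with 4 of 21 at the filter and 14 of 21 at 10 fragments or more. Of those 14, 4 were higher in each Zeb1Prx1 library (among them Trp63, Tfap2a and Tfcp2l1) and 1 was lower (Elf4), set against 10.7% and 10.6% of genes at that depth. Trp63, the p53 relative that specifies stratified epithelia, had 117, 45 and 124 fragments in Zeb1Prx1, against 11, 9 and 29 in WT. Ehf, an Ets factor close to Elf3, had 5, 1 and 67 fragments in Zeb1Prx1, against 0, 1 and 2 in WT. Its groups overlapped because Zeb1Prx1 replicate 2 lay below WT replicates 2 and 3 in FPKM. Of the 4 members at the filter, 1 was above 0 and 3 below, with a median log2 change of -0.17, which was 0.15 over the 14 with at least 10 fragments and 1.09 over them by limma voom. Elf4, an Ets factor of blood cells, had 8.80 ± 2.72 FPKM in Zeb1Prx1 and 14.1 ± 0.488 FPKM in WT (limma adjusted p = 0.278). Ubp1 and Tfcp2, relatives of the Grainyhead-like factors that are expressed in many tissues, overlapped between the groups, with 13.1 ± 2.17 FPKM in Zeb1Prx1 and 16.4 ± 1.84 FPKM in WT for Ubp1, and 2.68 ± 0.364 FPKM in Zeb1Prx1 and 2.29 ± 0.119 FPKM in WT for Tfcp2. Klf4 overlapped as well, at 17.0 ± 3.28 FPKM in Zeb1Prx1 and 17.5 ± 3.10 FPKM in WT.

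Genes downstream of these regulators were read at the level of the whole gene. Among 14 epithelial targets of Grhl and Ovol factors, 12 had at least 10 fragments, of which 8 were higher in each Zeb1Prx1 library and 1 was lower (Erbb3), beside 10.7% and 10.6% of genes at that depth. Dsp, which encodes the desmosome protein desmoplakin, had 320, 22 and 310 fragments in Zeb1Prx1, against 7, 3 and 1 in WT. Cldn4, a tight-junction gene activated by Grhl2, had 0, 0 and 9 fragments in Zeb1Prx1, against 1, 0 and 0 in WT, and Rab25, another Grhl2 target, had 0, 0 and 2 fragments in Zeb1Prx1, against 2, 0 and 1 in WT. The 3 targets at the filter were Spint2, Cdh3 and Spint1, of which Spint2 reached it through its Zeb1Prx1 level alone, and none passed (limma adjusted p = 0.220, 0.275 and 0.802). Spint1, an inhibitor of the protease matriptase, overlapped, at 1.75, 5.27 and 1.82 FPKM in Zeb1Prx1, against 4.58, 1.67 and 0.965 FPKM in WT.

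Of the 10 genes with exons that Esrp proteins switch, 8 reached the filter, with 3 above 0 and 5 below 0, a median log2 change of -0.098 and 0 called. All 10 had at least 10 fragments. Without overlap 1 was higher (Fgfr2) and 3 were lower (Slk, Scrib and Ralgps2), beside 10.7% and 10.6% of genes at that depth. Ralgps2 had 82, 72 and 72 fragments in Zeb1Prx1, against 122, 100 and 110 in WT. Fgfr2 had 9.34, 4.14 and 8.55 FPKM in Zeb1Prx1, against 2.61, 2.32 and 3.68 FPKM in WT (limma adjusted p = 0.273). Its groups did not overlap, and the order of the Zeb1Prx1 libraries differed from that of Esrp1 in that replicate 1 was highest. The kinase gene Slk had 11.7 ± 2.27 FPKM in Zeb1Prx1 and 15.7 ± 1.24 FPKM in WT, and the polarity gene Scrib 9.05 ± 0.498 FPKM in Zeb1Prx1 and 10.4 ± 0.526 FPKM in WT. Arhgef11 had 6.82, 1.51 and 4.74 FPKM in Zeb1Prx1, against 6.54, 8.37 and 6.70 FPKM in WT, and overlapped. Gene-level FPKM do not show which exon was used, so whether epithelial exons were included in any of these transcripts was not analysed here.

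The 5 repressors of epithelial genes were all at the filter, with 0 called. Without overlap, Snai2 and Twist1 were higher and Zeb2 was lower, set against 12.6% and 11.8% of genes at the filter, while Snai1 overlapped. Zeb1 was lower too, but its loss defines the groups, so its level is not a result about the repressors. Zeb2, the paralogue of Zeb1, had 12.9, 8.06 and 8.76 FPKM in Zeb1Prx1, against 16.3, 18.0 and 17.3 FPKM in WT (limma adjusted p = 0.264). Twist1 had 31.6 ± 7.83 FPKM in Zeb1Prx1 and 20.1 ± 4.54 FPKM in WT, and Snai2 36.3 ± 2.94 FPKM in Zeb1Prx1 and 24.7 ± 7.37 FPKM in WT (limma adjusted p = 0.302 and 0.307). Transcripts of these repressors were present in the libraries in which Esrp1 was detected. Whether the same cells held both was not tested, since the libraries are bulk.

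Epithelial and cartilage markers were read beside Esrp1. None of the 8 epithelial markers reached the filter, and of the 10 chondrocyte markers 7 did and 0 were called. The 8 epithelial markers had a summed level of 7.70, 3.46 and 18.4 FPKM in Zeb1Prx1, against 0.572, 0.154 and 0.124 FPKM in WT. Of the 6 with at least 10 fragments, 4 were higher in each Zeb1Prx1 library, beside 10.7% of genes at that depth. Those 4 (Epcam, Cdh1, Krt8 and Krt18) are also among the higher targets of Grhl and Ovol above, so the lists are not independent. Of the 8 epithelial markers, Krt8, Epcam and Krt14 were at 0 in WT, and Krt5, the keratin of basal epithelial cells, was at 0 in Zeb1Prx1. The 10 chondrocyte markers had a summed level of 557, 151 and 2412 FPKM in Zeb1Prx1, against 13.8, 206 and 155 FPKM in WT. Of these, which all had at least 10 fragments, 6 were higher in each Zeb1Prx1 library and 0 lower, beside 10.7% and 10.6% of genes at that depth, and Col9a1 and Snorc were at 0 in WT. In both sums replicate 3 was the highest and replicate 2 the lowest of the Zeb1Prx1 libraries, as for Esrp1, and in replicates 1 and 3 the epithelial sum was mostly Krt8, with 6.55, 0.652 and 15.2 FPKM in Zeb1Prx1. Gene by gene that order held for 2 of the 6 epithelial and 8 of the 10 chondrocyte markers with at least 10 fragments. Cdh1 and Krt18 were highest in Zeb1Prx1 replicate 2, at 0.218, 0.437 and 0.301 FPKM for Cdh1 and 0.693, 2.12 and 1.55 FPKM for Krt18. The part of these markers in the level of Esrp1 was not tested.

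The genes whose pattern was most like that of Esrp1, among 12585 other protein-coding genes with at least 100 fragments, were Rab11fip4, B4galnt3, Acox2, Krt8 and Susd5. Pearson's r of log2(FPKM + 1) over the 6 libraries was 0.994 to 0.999 for them. All 5 had their highest value in Zeb1Prx1 replicate 3, such as B4galnt3 at 5.35, 0.484 and 9.41 FPKM in Zeb1Prx1, against 0.217, 0.103 and 0.0517 FPKM in WT. The 5 genes most like Qk were Vps13a, Rims3, Vps33a, Zfp91 and Ptbp3, with r of 0.993 to 0.997. Those most like Rbfox2 were Pdzd7, Arhgap42, Adnp2, Morc2a and Trim35, with r of 0.972 to 0.988. These correlations describe 6 libraries that fall into 2 groups and share their depth and composition, and the genes were picked for them out of many.

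**Figure D3:**
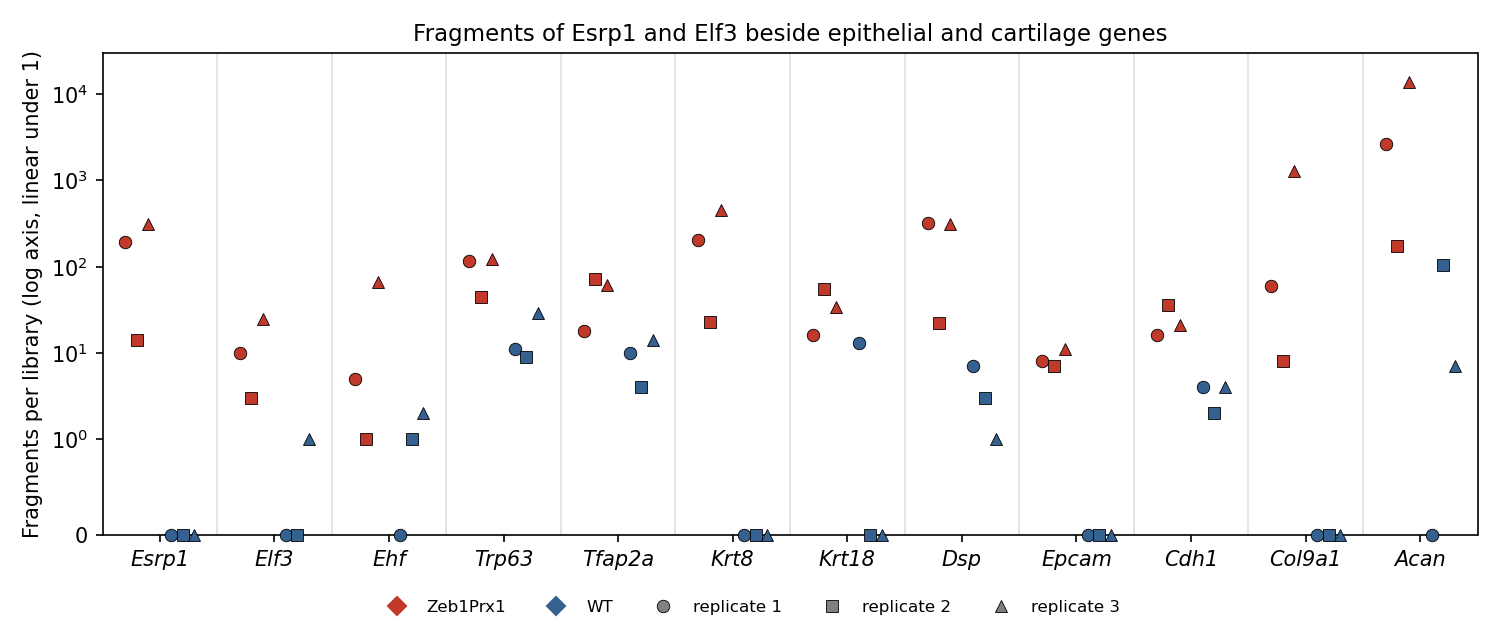
Fragments per library, on a log axis that is linear under 1, of Esrp1 and Elf3 beside epithelial (Ehf, Trp63, Tfap2a, Krt8, Krt18, Dsp, Epcam, Cdh1) and cartilage genes (Col9a1, Acan); Zeb1Prx1 in red left of WT in blue, 1 marker shape per replicate. Zeb1Prx1 replicate 3 is the highest library in 8 of these 12 genes, which were chosen after their values were seen, and replicate 2 is the lowest of the Zeb1Prx1 libraries in 9 of them; Tfap2a, Krt18 and Cdh1 have replicate 2 highest and Dsp replicate 1.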

How the data were processed

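RNA was sequenced as paired reads from 3 Zeb1Prx1 and 3 WT libraries. The deposited table holds the authors' FPKM per gene and library beside gene lengths and positions. Its build is mm10 according to the submitters' processing notes; aligner, counter and strandedness were not given in the sources used here. The number of fragments was recovered as FPKM times gene length divided by the smallest non-zero product in each library, then scaled by the summed fragments.

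The genotypes were compared across all genes by limma 3.58.1 under R 4.3.3, fitted to log2(FPKM + 1) values with trend, for genes with at least 1 FPKM in at least 3 libraries, with Benjamini-Hochberg adjustment and a threshold of 0.05. Log2 changes are Zeb1Prx1 minus WT on this scale and understate the change of low genes. Members under the filter were described by fragment ratios with exact conditional binomial intervals and two-sided exact permutation tests on FPKM (scipy 1.17.1). The code was tested on simulated data. The members and lists were chosen with earlier results of these data known. Named were all members, up to 4 genes per list with the smallest p at the filter and the 5 genes most like Esrp1, Rbfox2 and Qk; other list genes, given by fragments or as markers, were named after their values were seen, and some genes are not reported here. Alternatives were pseudocounts of 0.1 and 0.5, 2 other filters, 2 scalings, the replicate block, library weights, leaving out each library and limma voom on fragments.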

Additional observations from a re-analysis of the deposited data

How the results depend on the processing

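The call of 0 members among those at the filter was the same in the 15 alternatives, which included 5 further members in the 2 fits on genes with at least 10 fragments. Over all genes, library weights called 447 genes and the other 14 alternatives 0 or 1, the 1 without Zeb1Prx1 replicate 2 (range 0 to 1 over the fits that leave out a library); with weights Qk had an adjusted p of 0.0658. Library weights were 2.82 for Zeb1Prx1 replicate 3 and 0.226 for replicate 2. The log2 change of Rbfox2 was -0.10 with an equal FPKM sum and -0.083 to 0.23 when a library was left out; that of Qk was -0.52 to -0.34. The limit for Esrp1 was 94.9 to 254 and the ratio of Elf3 8.36 (a limit) to 52.7 in the same fits. The cause of these differences was not tested. With the replicate block, 0 genes were called, 1347 had an unadjusted p under 0.05, against 1897 without it, and Qk had an adjusted p of 0.466. Deviations from the group means correlated at 0.029, -0.413 and 0.080 for replicates 1, 2 and 3, and not every library correlated best with its own number, so the number was taken as a name only. Depth limits Grhl2, Grhl3, Ovol1 and Ovol2, with at most 28 fragments each, to large differences.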

Other observations

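Among the 29298 genes with 0 fragments in WT, Esrp1 ranked 4 by its 521 fragments in Zeb1Prx1, and 10 genes had 100 or more. That set was picked for 0 in WT and includes all genes without a fragment in any library. The latter share rank 27231 of 54532 by mean FPKM, so most of the 29298 had no fragment in Zeb1Prx1 either. The genes named here were chosen after their values were seen. Above Esrp1 were the cartilage collagen gene Col9a1 with 1365 fragments, the secreted epithelial protein gene Wfdc2 with 705 and the keratin gene Krt8 with 683. The next genes below it were the potassium channel gene Kcna6 with 499, Kdf1, a regulator of epidermal differentiation, with 231, the pseudogene Itih5l-ps with 222, Acox2 with 163 and Fxyd3 with 161.

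The noncoding gene 1810019D21Rik, on the strand opposite to Esrp2 and overlapping its span, had 18, 14 and 27 fragments in Zeb1Prx1, against 3, 1 and 4 in WT, without overlap between the groups. The fragments of Esrp2 itself overlapped between the groups, at 18, 16 and 39 in Zeb1Prx1, against 28, 9 and 8 in WT. Nfatc3, the coding gene that also overlaps Esrp2, had 1490, 932 and 1251 fragments in Zeb1Prx1, against 1734, 1772 and 1540 in WT.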
